A study of Homo sapiens with 36 samples.

Results

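Interferon-stimulated genes are the genes that cells switch on after an interferon binds its receptor, and 35 of them were followed here in human colon cancer cells given the BET inhibitor JQ1. They were chosen by name as a set of well-known interferon response genes, and the choice used no measured value, although earlier results of these data were known. All 35 were found among the 26468 genes of the expression table, and 33 of them were among the 15542 genes tested. Transcript levels were measured by RNA sequencing in 6 established colon cancer lines (COLO205, COLO320, HCT116, HCT-15, HT-29 and SW480). Each line received JQ1 at 0.5 µM for 24 h, or the solvent DMSO alone as control, and each of the 12 groups had 3 libraries. JQ1 blocks the bromodomains of the BET proteins, which recognise acetylated histones and help RNA polymerase leave the promoter. No interferon was named among the treatments, and no genotype beyond the name of the line was given. Separate cultures for the replicates were not stated, so the p-values measure the spread between these libraries, which may be technical. One concentration and one time were used.

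In the textbook scheme, type I and type III interferons act through the kinases JAK1 and TYK2, which phosphorylate STAT2. With IRF9 it forms part of the complex ISGF3, which binds a short promoter element called the interferon-stimulated response element and switches on antiviral genes. Their products sense viral RNA, degrade it, block its translation, tag proteins with ISG15 or trap new virus particles. Many are also expressed at a lower, constant level in tumour cells without added interferon. In bulk RNA a lower value cannot be told apart from fewer expressing cells.

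The response element is the sequence that these genes are known for, so a simple form of it was sought in the promoters of the members. The motif was written GAAANNGAAA, which reads TTTCNNTTTC on the other strand, and both were searched in the 300 bases from 250 before to 50 after each RefSeq gene start of the assembly GRCh38.p14. An entry was found for 29 of the 35 members, and 20 of these held a match, which is 69.0%. Among all 27305 promoters 996 did, which is 3.65%. A second element, TTCNNNGAA, the palindromic form bound by STAT dimers, was in 8 of the 29 members, or 27.6%, and in 7.88% of all promoters. The windows below hold 60 bases around the match of 2 members that rose on average under JQ1, ISG15 and IFI6, and of 6 that fell. They are shown because the same letters occur on both sides of the division described below. All are read in the direction of the gene, and capitals mark the motif.
ISG15 promoter, chr1:1013365-1013424, plus strand: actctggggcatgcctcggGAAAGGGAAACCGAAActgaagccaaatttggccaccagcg
IFI6 promoter, chr1:27672251-27672310, minus strand: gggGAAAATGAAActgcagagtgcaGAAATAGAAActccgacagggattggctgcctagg
IFIT1 promoter, chr10:89392495-89392554, plus strand: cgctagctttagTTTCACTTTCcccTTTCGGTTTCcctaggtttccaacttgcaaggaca
OAS3 promoter, chr12:112938437-112938496, plus strand: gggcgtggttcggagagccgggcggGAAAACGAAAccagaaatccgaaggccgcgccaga
DTX3L promoter, chr3:122564307-122564366, plus strand: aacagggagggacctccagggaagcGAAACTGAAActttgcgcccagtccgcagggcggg
ISG20 promoter, chr15:88638922-88638981, plus strand: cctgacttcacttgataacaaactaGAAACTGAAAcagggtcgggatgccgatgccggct
IFI44 promoter, chr1:78649746-78649805, plus strand: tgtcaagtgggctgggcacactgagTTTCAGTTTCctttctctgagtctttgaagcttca
EPSTI1 promoter, chr13:42992257-42992316, minus strand: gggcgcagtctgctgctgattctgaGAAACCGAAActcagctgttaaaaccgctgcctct
In ISG15 the matches overlapped and formed one run of capitals. IFIT1 held 2 separate matches in the reverse form, the nearer of them 103 bases before the start. The match in OAS3 began 12 bases before the start and that in DTX3L 6 bases before it. STAT2, IRF1, IRF9, OAS1, HERC6, PARP9, IFI35, XAF1 and CXCL11 had no match in the window, which says only that these letters are absent there. No promoter entry was used for IRF7, DHX58, IFIT2, OAS2, OASL and USP18.

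Reads in genes numbered 18.8 M to 53.1 M per library, and 1 read of a 1-kb transcript was worth 0.0191 to 0.0524 RPKM (reads per kilobase of transcript per M reads). The treatment labels were checked on genes with a known BET inhibitor response. HEXIM1 and SERPINI1 rose in all 6 lines, on average 3.45-fold and 3.24-fold, and MYC fell in all 6, on average 1.78-fold. Of 9 epithelial markers, 6 in HCT116, 7 in SW480, 9 in HT-29, 8 in COLO205, 8 in HCT-15 and 5 in COLO320 had a DMSO mean of at least 1 RPKM. COLO320 had 4 of them under 0.1 RPKM, namely CDH1, KRT19, VIL1 and LGALS4, and HCT116 and SW480 had 1 each, CDH17. EPCAM means under DMSO were 186 to 808 RPKM in 5 lines and 1.37 in COLO320. CDX2 had a DMSO mean of 1099 RPKM in COLO320 and 0.330 to 41.3 in the other lines. The remaining epithelial markers in COLO320, KRT18, KRT8 and CDH17, had DMSO means of 35.8, 20.6 and 2.68 RPKM. Of 8 leukocyte markers 1 to 3 reached 1 RPKM under DMSO, and their summed level was 4.33 to 8.79 RPKM per DMSO library in HCT116, SW480, HCT-15 and COLO320. It was 1204 to 1225 in COLO205 and 1505 to 1553 in HT-29, nearly all of it LYZ and, in COLO205, CD68. Under JQ1 the sums were 610.1 to 641 in COLO205, 1108 to 1140 in HT-29 and 3.196 to 7.57 in the other 4 lines. Their part in the results was not tested. PTPRC, the marker shared by all leukocytes, had means of 0 to 0.00360 RPKM over both treatments in 5 lines and was at 3.48 under DMSO in COLO320. Fibroblast markers summed to at most 3.38 RPKM in 5 lines and to 15.5 to 15.8 under DMSO in COLO320, where COL3A1 made up most. Endothelial markers summed to at most 0.471 RPKM in any library. Strand was not stated, and reads from overlapping genes cannot be told apart.

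Most of the interferon-stimulated genes fell under JQ1, while 3 of the 4 transcription factors among them rose. On the average of the 6 lines, 6 of the 33 tested members rose, where 40.2% of all tested genes did, and 24 fell, where 48.3% did. The members' shares were 18.2% up and 72.7% down. Changes are differences of log2(RPKM + 0.5), JQ1 minus DMSO, on which low values change less than their ratio. Their median over the members was -0.43, and over all tested genes it was -0.04. The members that rose were IRF7, IFI6, STAT2, IRF1, ISG15 and DHX58. IRF9, TRIM21 and IFI27 did not pass the test, at 0.075 (SE 0.0527, adjusted p = 0.179), 0.033 (SE 0.0256, adjusted p = 0.228) and -0.062 (SE 0.0718, adjusted p = 0.412). IRF7 and IFI6 rose at least 2-fold on average, where 1.33% of all genes did, and OASL fell as far, where 1.85% did. The 24 that fell ranged from -0.07 for IFI35 to -1.01 for OASL. The 2 calls nearest to the threshold, DHX58 at 0.082 (SE 0.0376, adjusted p = 0.0437) and IFI35 at -0.068 (SE 0.0313, adjusted p = 0.0455), were lost when 1 library was left out, for 23 and 22 of the 36 libraries in turn. With the 6 cell lines taken as the unit, 4 rose (STAT2, IRF1, IRF7 and IFI6) and 11 fell, where 18.6% and 20.3% of all genes did. Those 11 were IFIH1, IFIT1, IFIT2, IFIT3, OAS3, USP18, HERC6, PARP9, DTX3L, ISG20 and BST2. Among members with a promoter entry, 14 of the 20 that fell and 2 of the 4 that rose held the response element motif.

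The same direction dominated in each line taken alone. In HCT116, 6 members rose and 18 fell, against 32.4% and 35.5% of all genes. In SW480, 8 rose and 17 fell, against 33.9% and 40.1%. The falls of both lines included OAS3, IFIT3 and PARP9, and the rises IRF7 and STAT2. HT-29 had 10 rises and 17 falls, against 36.6% and 37.3%, and COLO205 had 8 and 21, against 34.2% and 38.6%. HCT-15 had 6 and 17, against 34.8% and 35.4%, and COLO320 had 3 and 21, against 31% and 37.2%. In all 6 lines the share of members that fell exceeded the share of all genes, and the share that rose was below it. COLO320 stood at the low end for rises, which were STAT2, IRF1 and IFI6. Of all 198 changes of a member in a line, 41 were rises, 111 were falls and 46 were not called. Among the falls were OAS2 in SW480, IFI44 in HT-29, XAF1 in COLO205 and CXCL11 in COLO320. Each was tested only because its DMSO libraries in that line were high, so its fall there was favoured.

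Medians of the members by line were -0.14 in HCT116, -0.20 in SW480, -0.23 in HT-29, -0.39 in COLO205, -0.19 in HCT-15 and -0.38 in COLO320. Those of all tested genes lay between -0.02 and 0 in the same lines. With members at 0 in 1 group set to a floor of 3 reads over the group, the HT-29 median became -0.21 and no other median moved. DMSO and JQ1 libraries of a line did not overlap for 23, 28, 29, 29, 25 and 23 of the 33 members in that order of lines, where 69.1%, 73.8%, 75%, 74%, 73.2% and 71.6% of all genes did not. Groups were separate for most genes of the table as well, so these counts say little about the members. Falls of at least 2-fold numbered 1 in HCT116, 3 in SW480, 3 in HT-29, 5 in COLO205, 7 in HCT-15 and 8 in COLO320, where 3.14%, 4.88%, 5.9%, 5.63%, 3.55% and 4.66% of all genes fell as far. They included OAS2 in SW480, IFI44 in HT-29, XAF1 in COLO205 and CXCL11 in COLO320, each tested only because its DMSO libraries there were high. Rises of at least 2-fold numbered 1, 2, 4, 3, 2 and 0, where 1.42%, 3.23%, 4.1%, 3.49%, 3.39% and 1.21% of all genes rose as far.

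**Figure D1:**
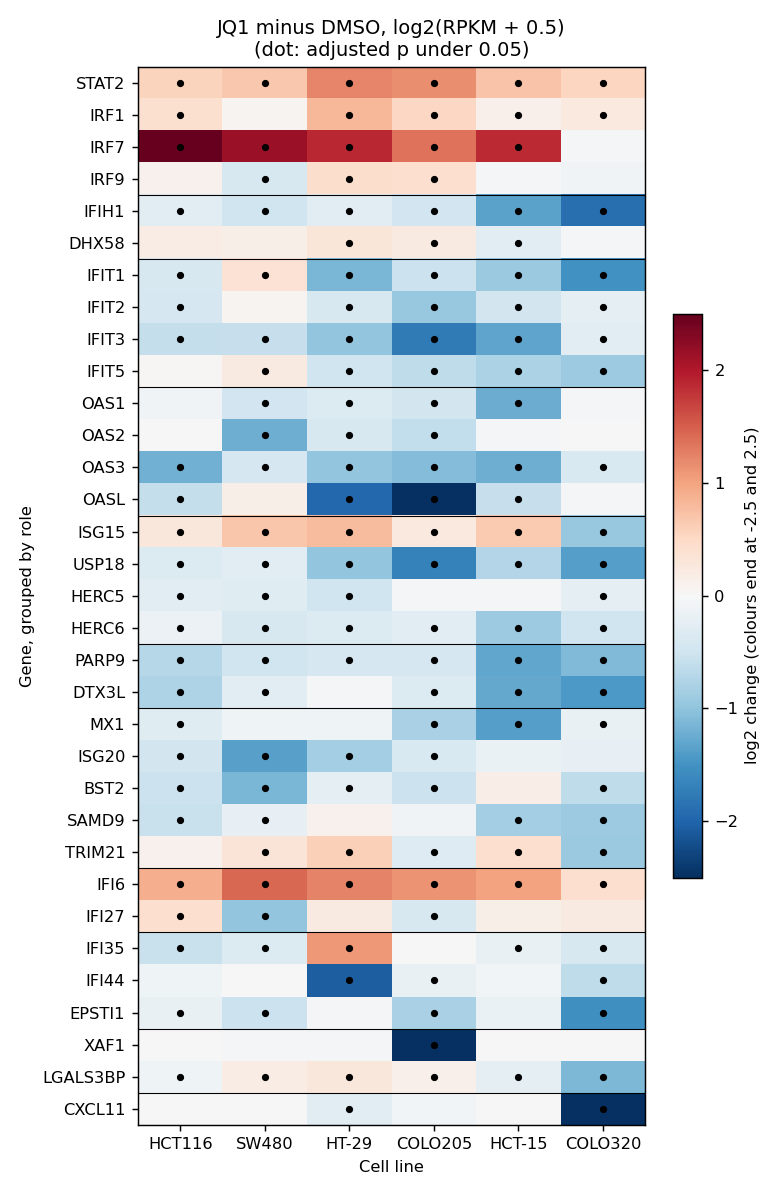
Change of each of the 33 tested members (rows, grouped by role and separated by lines) in each cell line (columns), as the difference of log2(RPKM + 0.5) between JQ1 and DMSO with 3 libraries each; red is higher and blue lower under JQ1, and a dot marks an adjusted p under 0.05. STAT2 and IFI6 are red with a dot in all 6 lines, and IFIH1, IFIT3, OAS3, USP18, HERC6 and PARP9 are blue with a dot in all 6.

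Agreement across lines was found for 8 members. STAT2 and IFI6 rose in every line, where 11.2% of all genes did, and IFIH1, IFIT3, OAS3, USP18, HERC6 and PARP9 fell in every line, where 11.7% did. A further 4 fell in 5 lines, namely IFIT1, IFIT2, DTX3L and BST2. By contrast 9 members rose in at least 1 line and fell in at least 1 other, where 33.6% of all genes did so: IRF9, DHX58, IFIT1, IFIT5, ISG15, TRIM21, IFI27, IFI35 and LGALS3BP. All 33 had changes whose size depended on the line by the F test of the interaction of line and treatment, as it did for 93.3% of all genes.

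The untreated level also set the lines apart. DMSO levels differed between lines for all 33 members, as for 98.8% of all genes. COLO205 held the highest DMSO mean of 14 members, HT-29 of 6, HCT-15 of 5, COLO320 of 4, SW480 of 3 and HCT116 of 1. The lowest mean was in COLO320 for 13 members. Among the 165 pairs of neighbours in the order of levels, 44 did not differ beyond their spread. Members with a DMSO mean of at least 1 RPKM numbered 20 in HCT116, 22 in SW480, 25 in HT-29, 27 in COLO205, 23 in HCT-15 and 19 in COLO320. Under JQ1 the numbers were 17, 18, 22, 24, 18 and 12. Shares over all genes were not computed for the highest and lowest lines, the neighbours or the 1 RPKM counts. These counts therefore describe the members and cannot show whether they differ from other genes. Some members reached 1 RPKM in a single line: XAF1 in COLO205 at 8.93 ± 0.101 RPKM, CXCL11 in COLO320 at 8.96 ± 0.864 and IFI44 in HT-29 at 2.15 ± 0.147 (SD, n = 3). OAS2 did so in SW480, at 1.91 ± 0.0995. These 4 members passed the filter on low values through the 3 DMSO libraries of 1 line, where they were high, so a difference there was built in. Without them, 6 of 29 members rose on average and 20 fell. Of these 29, DHX58 reached 1 RPKM in 7 libraries, 2 of them DMSO, so it needed JQ1 libraries to pass.

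**Figure D2:**
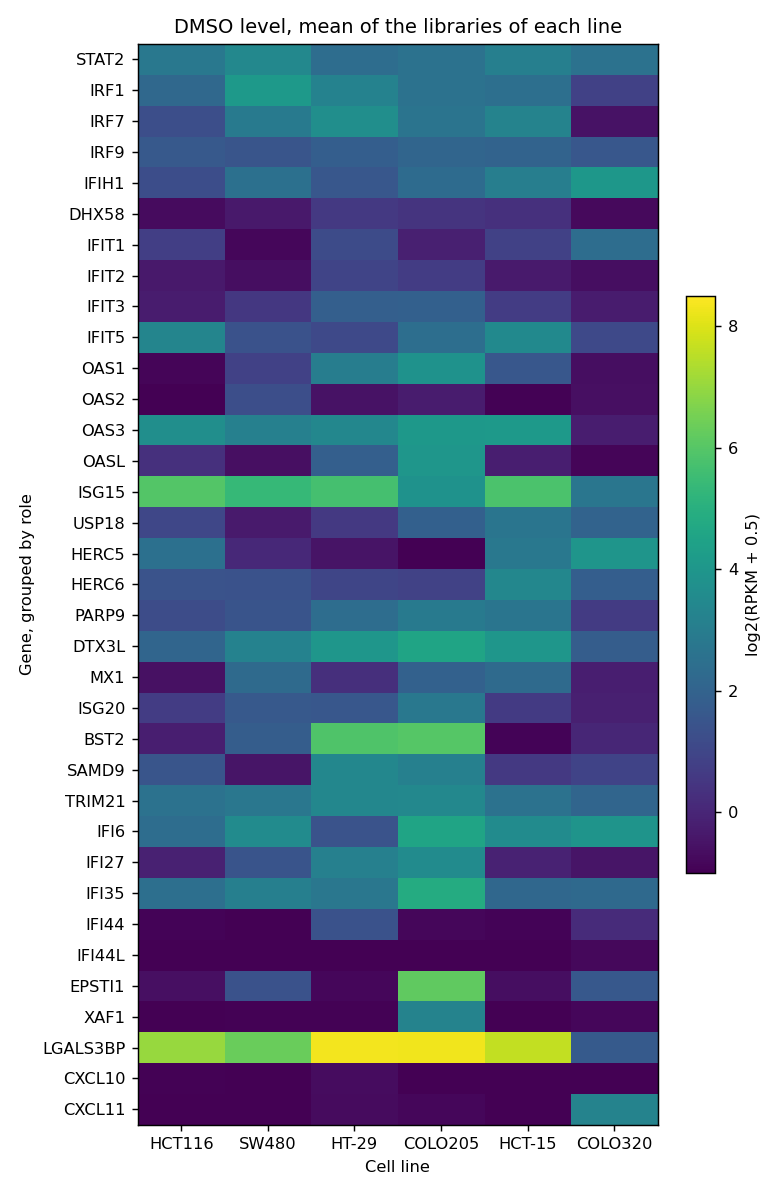
Mean DMSO level of each of the 35 members (rows, grouped by role) in each cell line (columns), as log2(RPKM + 0.5) over 3 libraries; brighter is higher. LGALS3BP is brightest in every line but COLO320, and EPSTI1, BST2 and OASL are brighter in COLO205 than in most lines.

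Of the 4 transcription factors 3 rose on average. Of their 24 changes in single lines 18 were rises and 1 was a fall, where 31% to 36.6% of all genes rose in a line and 35.4% to 40.1% fell. STAT2, the ISGF3 subunit that brings the activation domain, had a log2 change of 0.81 (SE 0.0197, adjusted p = 1.01e-24) on average. In HCT116, STAT2 stood at 6.55, 6.74 and 5.902 RPKM under DMSO and 9.64, 9.13 and 10.1 under JQ1. In SW480, STAT2 stood at 10.2, 10.9 and 9.83 RPKM under DMSO and 16.1, 16.8 and 16.97 under JQ1. Within each of these lines, levels were higher in every JQ1 library than in any DMSO library. In HT-29, STAT2 stood at 4.997, 4.89 and 4.44 RPKM under DMSO and 11.6, 11.9 and 11.7 under JQ1. In COLO205, STAT2 stood at 5.74, 5.28 and 5.37 RPKM under DMSO and 12.5, 12.9 and 13.03 under JQ1. These lines had low DMSO levels and the largest changes of the 6, 1.22 (SE 0.0483, adjusted p = 3.97e-19) and 1.16 (SE 0.0483, adjusted p = 1.38e-18). COLO320 had a DMSO mean like that of COLO205, 5.48 against 5.46 RPKM, and the smallest change of the 6. In HCT-15, STAT2 stood at 8.098, 8.400 and 7.94 RPKM under DMSO and 13.9, 13.1 and 14.03 under JQ1. In COLO320, STAT2 stood at 5.42, 5.67 and 5.35 RPKM under DMSO and 8.43, 8.39 and 7.63 under JQ1. The groups did not overlap in any line, and the change in COLO320, 0.53 (SE 0.0483, adjusted p = 8.55e-11), was the largest rise of any member there. Under DMSO the order ran from SW480 through HCT-15, HCT116, COLO320 and COLO205 to HT-29, and of these neighbours COLO320 and COLO205 did not differ (adjusted p = 0.932). Under JQ1 the libraries spanned 7.63 to 17.0 RPKM.

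IRF7, a factor that drives interferon genes themselves once virus is sensed, rose most. Its average log2 change was 1.62 (SE 0.02705, adjusted p = 1.28e-28), and it was the largest rise of any member in 5 lines. In HCT116, IRF7 stood at 1.702, 1.96 and 2.06 RPKM under DMSO and 12.5, 13.5 and 13.2 under JQ1. In SW480, IRF7 stood at 7.57, 6.58 and 6.68 RPKM under DMSO and 30.05, 32.2 and 35.7 under JQ1. Both groups of each line were far apart, with changes of 2.50 (SE 0.0663, adjusted p = 1.14e-22) and 2.15 (SE 0.0663, adjusted p = 1.95e-21). In HT-29, IRF7 stood at 12.6, 12.4 and 12.6 RPKM under DMSO and 49.3, 48.1 and 46.3 under JQ1. In COLO205, IRF7 stood at 5.91, 5.56 and 6.07 RPKM under DMSO and 16.4, 14.7 and 16.4 under JQ1. The changes there were 1.89 (SE 0.0663, adjusted p = 2.08e-20) and 1.36 (SE 0.0663, adjusted p = 5.1e-17). In HCT-15, IRF7 stood at 8.97, 9.51 and 8.83 RPKM under DMSO and 34.4, 34.2 and 34.6 under JQ1, a change of 1.86 (SE 0.0663, adjusted p = 5.05e-20). In COLO320, IRF7 stood at 0.267, 0.147 and 0.164 RPKM under DMSO and 0.179, 0.198 and 0.117 under JQ1. COLO320 thus held little IRF7 in either group, from 35 reads under DMSO and 28 under JQ1 summed over 3 libraries each, and its change of -0.058 (SE 0.0663, adjusted p = 0.47) was not called. All neighbours in the DMSO order, from HT-29 through HCT-15, SW480, COLO205 and HCT116 to COLO320, differed.

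IRF1, a factor induced by interferon gamma that activates promoters on its own, rose by less, 0.36 (SE 0.0214, adjusted p = 2.09e-15) on average. In HCT116, IRF1 stood at 4.42, 4.25 and 3.85 RPKM under DMSO and 5.83, 5.63 and 5.58 under JQ1. In SW480, IRF1 stood at 16.9, 15.9 and 16.9 RPKM under DMSO and 17.2, 17.3 and 17.4 under JQ1. SW480 had the highest DMSO level of the 6 lines, and its change of 0.061 (SE 0.0525, adjusted p = 0.301) was not called. In HT-29, IRF1 stood at 8.91, 8.56 and 8.79 RPKM under DMSO and 15.4, 16.7 and 15.5 under JQ1. In COLO205, IRF1 stood at 5.35, 5.67 and 5.49 RPKM under DMSO and 8.17, 8.09 and 7.99 under JQ1. Rises in these lines were 0.82 (SE 0.0525, adjusted p = 2.5e-14) and 0.52 (SE 0.0525, adjusted p = 6.56e-10), with no overlap. In HCT-15, IRF1 stood at 5.25, 4.69 and 5.07 RPKM under DMSO and 5.21, 5.72 and 5.56 under JQ1. In COLO320, IRF1 stood at 1.32, 1.28 and 1.21 RPKM under DMSO and 1.64, 1.76 and 1.37 under JQ1. The HCT-15 groups overlapped, and that call was lost without DMSO replicate 2 (0.083, adjusted p = 0.209), without JQ1 replicate 2 (0.10, adjusted p = 0.146) and also without JQ1 replicate 3 (0.12, adjusted p = 0.0861). With total reads as the divisor the HCT-15 change was 0.0125 (adjusted p = 0.867). The call was also lost with a pseudocount of 0.1 (adjusted p = 0.05001) and with the line fitted alone (adjusted p = 0.0941). All neighbours in the DMSO order, SW480, HT-29, COLO205, HCT-15, HCT116 and COLO320, differed.

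IRF9, the DNA-binding subunit of ISGF3, had no called change on average and changed in 3 lines. In HCT116, IRF9 stood at 2.82, 2.52 and 2.67 RPKM under DMSO and 2.84, 3.06 and 2.83 under JQ1. In SW480, IRF9 stood at 2.501, 2.39 and 2.19 RPKM under DMSO and 2.200, 1.61 and 1.296 under JQ1. The SW480 change of -0.40 (SE 0.129, adjusted p = 0.00734) was the one fall among the factors, and it was lost without JQ1 replicate 3 (-0.26, adjusted p = 0.0862). In HT-29, IRF9 stood at 2.27, 3.595 and 3.33 RPKM under DMSO and 4.22, 4.04 and 4.53 under JQ1. In COLO205, IRF9 stood at 4.58, 2.98 and 3.89 RPKM under DMSO and 5.49, 4.75 and 5.53 under JQ1. Rises there of 0.44 (SE 0.129, adjusted p = 0.00339) and 0.43 (SE 0.129, adjusted p = 0.00399) were lost without HT-29 DMSO replicate 1 (0.27, adjusted p = 0.063) and COLO205 DMSO replicate 2 (0.28, adjusted p = 0.0593). In HCT-15, IRF9 stood at 3.75, 3.39 and 3.48 RPKM under DMSO and 3.69, 3.37 and 3.24 under JQ1. In COLO320, IRF9 stood at 2.58, 2.52 and 2.39 RPKM under DMSO and 2.01, 2.65 and 2.34 under JQ1. No change was called in HCT116, HCT-15 or COLO320, and no neighbours in the DMSO order differed.

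**Figure D3:**
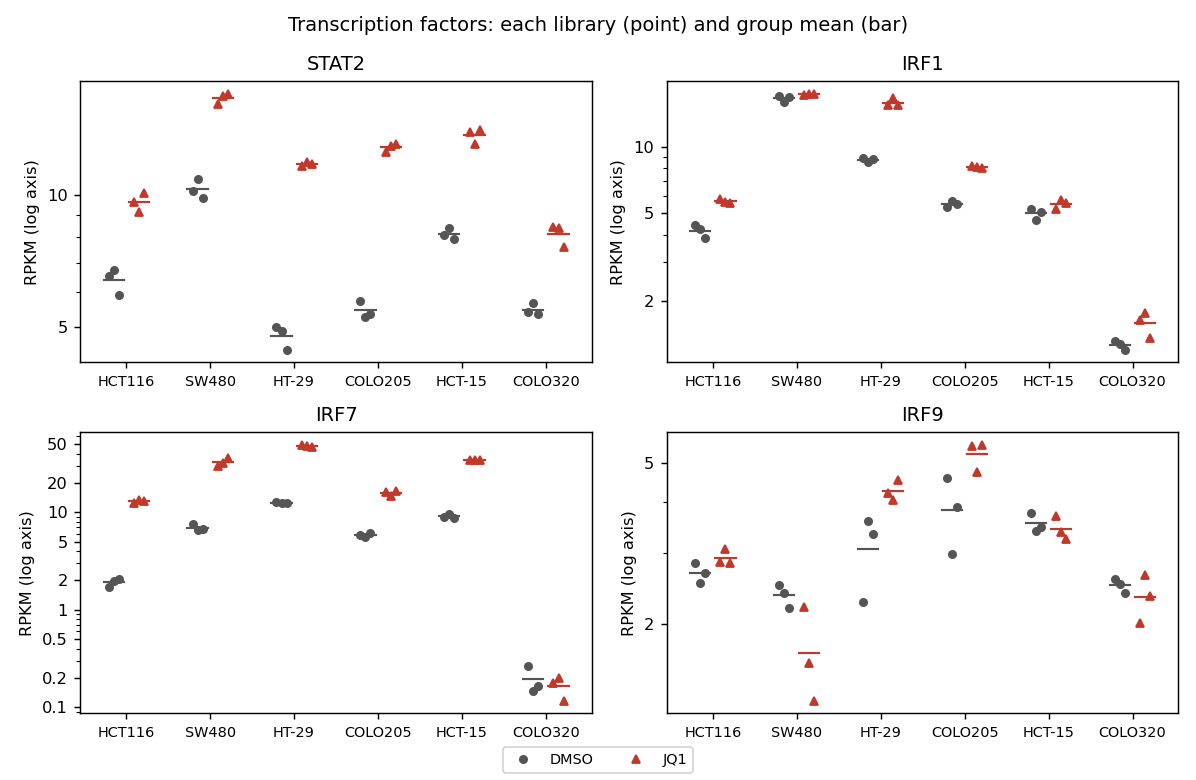
RPKM on a log axis of the 4 transcription factors among the members in each library (grey circles DMSO, red triangles JQ1; bars are group means of 3 libraries) by cell line. STAT2 is higher under JQ1 in all 6 lines, IRF7 is higher in 5 and stays between 0.117 and 0.267 RPKM in COLO320, and the IRF9 groups lie close together.

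The 2 sensors of double-stranded RNA parted. IFIH1, also called MDA5, which detects long viral RNA, fell in all 6 lines, with a change of -0.79 (SE 0.0274, adjusted p = 4.45e-21) on average. The fall was largest where the DMSO level was highest, in COLO320 at 15.9, 15.2 and 16.6 RPKM under DMSO and 4.36, 3.83 and 3.605 under JQ1, a change of -1.89 (SE 0.06701, adjusted p = 6.47e-20). HCT-15 came next at 7.97, 7.74 and 7.93 RPKM under DMSO and 2.84, 2.97 and 2.702 under JQ1, a change of -1.33 (SE 0.06701, adjusted p = 1.5e-16). The other 4 lines had DMSO means of 1.87 to 5.16 RPKM and changes of -0.27 to -0.51. DHX58, also called LGP2, which regulates the other sensors, had low levels of 0.0485 to 1.501 RPKM over all libraries. It rose in HT-29 (0.29 (SE 0.0922, adjusted p = 0.00553)) and COLO205 (0.22 (SE 0.0922, adjusted p = 0.0341)) and fell in HCT-15 (-0.28 (SE 0.0922, adjusted p = 0.00726)). The COLO205 call was lost without DMSO replicate 1 or 3 or JQ1 replicate 1 or 2 (adjusted p up to 0.14), and the HCT-15 call without DMSO replicate 2 (-0.20, adjusted p = 0.07).

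IFIT proteins grip the unusual ends of viral RNA and keep it from being translated. All 4 IFIT members fell on average, and 20 of their 24 changes in single lines were falls, against 48.3% of all genes on average and 35.4% to 40.1% in a line. IFIT3 fell in every line, most in COLO205, where it stood at 3.59, 3.15 and 3.104 RPKM under DMSO and 0.614, 0.542 and 0.662 under JQ1, a change of -1.77 (SE 0.108, adjusted p = 9.2e-15). In HCT-15 it fell from 1.09 ± 0.223 to 0.136 ± 0.0598 RPKM, a change of -1.32 (SE 0.108, adjusted p = 7.66e-12). The smallest fall of IFIT3, in COLO320 (-0.27 (SE 0.108, adjusted p = 0.0283)), was lost without DMSO replicate 1 (-0.18, adjusted p = 0.188) and also without JQ1 replicate 3 (-0.13, adjusted p = 0.289). IFIT1 was highest in COLO320 and fell there from 4.71 ± 0.183 to 1.33 ± 0.03698 RPKM, a change of -1.51 (SE 0.119, adjusted p = 3.82e-12). It also fell at least 2-fold in HT-29, from 1.78 ± 0.0787 to 0.5401 ± 0.128 RPKM (-1.14 (SE 0.119, adjusted p = 1.03e-09)). In SW480 alone IFIT1 rose, with 8 reads under DMSO and 32 under JQ1 (0.37 (SE 0.119, adjusted p = 0.00651)), and that call was lost under quantile scaling (0.19, adjusted p = 0.14). IFIT5 rose in SW480 as well, from 2.100 ± 0.0757 to 2.53 ± 0.00593 RPKM (0.22 (SE 0.0595, adjusted p = 0.00166)), and fell in HT-29, COLO205, HCT-15 and COLO320, with changes of -0.50 to -0.92. IFIT2 fell in 5 lines, with changes of -0.25 to -0.95, and its COLO320 call was lost without DMSO replicate 1 (-0.21, adjusted p = 0.0645) and also without JQ1 replicate 1 (-0.20, adjusted p = 0.0787). All 4 overlap the RefSeq span of LIPA, a lysosomal lipase gene with a median of 19.9 RPKM, so reads could be shared with it, which was not tested.

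OAS enzymes answer double-stranded RNA by making short oligoadenylates that switch on the nuclease RNase L. None of the 4 OAS members rose in any line, and 17 of 24 changes were falls, where 31% to 36.6% of all genes rose in a line and 35.4% to 40.1% fell. OAS3 fell in all 6 lines and was the largest fall of any member in HCT116, where it stood at 12.5, 12.3 and 12.3 RPKM under DMSO and 5.14, 5.25 and 4.94 under JQ1, a change of -1.20 (SE 0.0463, adjusted p = 6.03e-19). In HCT-15 the level went from 16.7 ± 0.2003 to 6.87 ± 0.289 RPKM (-1.22 (SE 0.0463, adjusted p = 2.06e-19)) and in COLO205 from 16.4 ± 0.418 to 7.45 ± 0.351 RPKM (-1.09 (SE 0.0463, adjusted p = 2.08e-18)). JQ1 levels of OAS3 in the 5 lines other than COLO320 lay between 4.70 and 7.73 RPKM, closer together than the DMSO levels of 7.95 to 16.9. COLO320 held little OAS3, 0.290 to 0.437 RPKM under DMSO, and still fell (-0.38 (SE 0.0463, adjusted p = 3.24e-08)).

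OASL, a relative without the enzyme activity that aids RNA sensing, was the largest fall of any member in COLO205. It stood there at 15.9, 14.3 and 15.8 RPKM under DMSO and 1.18, 1.67 and 1.54 under JQ1, a change of -3.02 (SE 0.112, adjusted p = 8.4e-20). Every JQ1 library was far below every DMSO library. In HT-29 OASL fell from 3.21 ± 0.246 to 0.458 ± 0.119 RPKM, a change of -1.96 (SE 0.112, adjusted p = 1.8e-15). It fell also in HCT116 (-0.60 (SE 0.112, adjusted p = 2.56e-05)) and HCT-15 (-0.58 (SE 0.112, adjusted p = 3.28e-05)), where the DMSO means were 0.737 and 0.377 RPKM. SW480 and COLO320, with 0.159 and 0.04504 RPKM, had changes of 0.14 (SE 0.112, adjusted p = 0.257) and -0.021 (SE 0.112, adjusted p = 0.905), which were not called. OAS2 fell from 1.91 ± 0.0995 to 0.538 ± 0.0277 RPKM in SW480 (-1.21 (SE 0.0607, adjusted p = 1.2e-16)), and OAS1 from 2.48 ± 0.176 to 0.7702 ± 0.0417 RPKM in HCT-15 (-1.23 (SE 0.08602, adjusted p = 2.47e-13)). OAS2 passed the filter on low values only through the DMSO libraries of SW480, so its fall there was favoured. The 3 genes OAS1, OAS3 and OAS2 lie next to each other, yet in HCT116 OAS3 was at 12.3 RPKM under DMSO while OAS1 and OAS2 summed to 7 and 3 reads.

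ISG15 is a ubiquitin-like protein that is joined to other proteins by ligases such as HERC5 and taken off by USP18, which also blocks the interferon receptor. ISG15 itself rose in 5 lines, while USP18, HERC6 and HERC5 fell on average. ISG15 was the second most abundant member under DMSO in HCT116, HCT-15 and SW480, with means of 61.5 ± 1.46, 56.02 ± 1.83 and 40.8 ± 1.55 RPKM (SD, n = 3). Its largest rises were in HT-29, from 51.8 ± 0.878 to 90.1 ± 1.79 RPKM (0.79 (SE 0.0461, adjusted p = 2.89e-15)), and in SW480, from 40.8 ± 1.55 to 66.5 ± 3.36 RPKM (0.70 (SE 0.0461, adjusted p = 6.79e-14)). In COLO320, where it was lowest, ISG15 fell from 6.06 ± 0.543 to 2.88 ± 0.135 RPKM (-0.95 (SE 0.0461, adjusted p = 8.34e-17)). USP18 fell in every line, with a change of -0.90 (SE 0.0351, adjusted p = 8.33e-20) on average. Its COLO205 level went from 3.25 ± 0.367 to 0.664 ± 0.0805 RPKM (-1.68 (SE 0.08603, adjusted p = 1.6e-16)) and its COLO320 level from 3.59 ± 0.0436 to 1.07 ± 0.0523 RPKM (-1.39 (SE 0.08603, adjusted p = 2.18e-14)). A near-identical copy, USP41P, reached at most 0.798 RPKM. HERC6, a relative of HERC5, fell in all lines, most in HCT-15 from 9.93 ± 0.222 to 5.07 ± 0.279 RPKM (-0.91 (SE 0.0629, adjusted p = 2.1e-13)). Its HCT116 call (-0.14 (SE 0.0629, adjusted p = 0.0471)) was lost without any 1 of DMSO replicates 1, 2 and 3 and JQ1 replicates 2 and 3 (adjusted p up to 0.229). HERC5 fell in HCT116, SW480, HT-29 and COLO320, with changes of -0.23 to -0.49 and had changes of -0.032 (SE 0.0472, adjusted p = 0.584) in HCT-15 and -0.022 (SE 0.0472, adjusted p = 0.717) in COLO205, where it had 2 reads under DMSO and 0 under JQ1.

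PARP9 and DTX3L act as a pair that adds ADP-ribose and ubiquitin to proteins, histones among them, and their genes overlap in RefSeq, so that reads could be shared. They fell in 11 of 12 comparisons, where 35.4% to 40.1% of all genes fell in a line. In HCT-15 PARP9 stood at 5.61, 6.11 and 6.01 RPKM under DMSO and 2.09, 1.98 and 2.23 under JQ1, a change of -1.30 (SE 0.0524, adjusted p = 8.59e-19). DTX3L in the same libraries stood at 14.99, 16.2 and 15.3 RPKM under DMSO and 5.94, 6.51 and 5.85 under JQ1, a change of -1.28 (SE 0.0486, adjusted p = 2.31e-19). Both dropped to well under their DMSO range. In COLO320 PARP9 went from 1.08 ± 0.0569 to 0.2400 ± 0.0275 RPKM (-1.09 (SE 0.0524, adjusted p = 6.34e-17)) and DTX3L from 2.98 ± 0.155 to 0.791 ± 0.114 RPKM (-1.44 (SE 0.0486, adjusted p = 2.29e-20)). HT-29 separated the pair, since PARP9 fell (-0.42 (SE 0.0524, adjusted p = 3.56e-08)) and DTX3L had a change of -0.057 (SE 0.0486, adjusted p = 0.304). With total reads as the divisor, DTX3L in HT-29 passed the threshold at -0.12 (adjusted p = 0.0211).

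**Figure D4:**
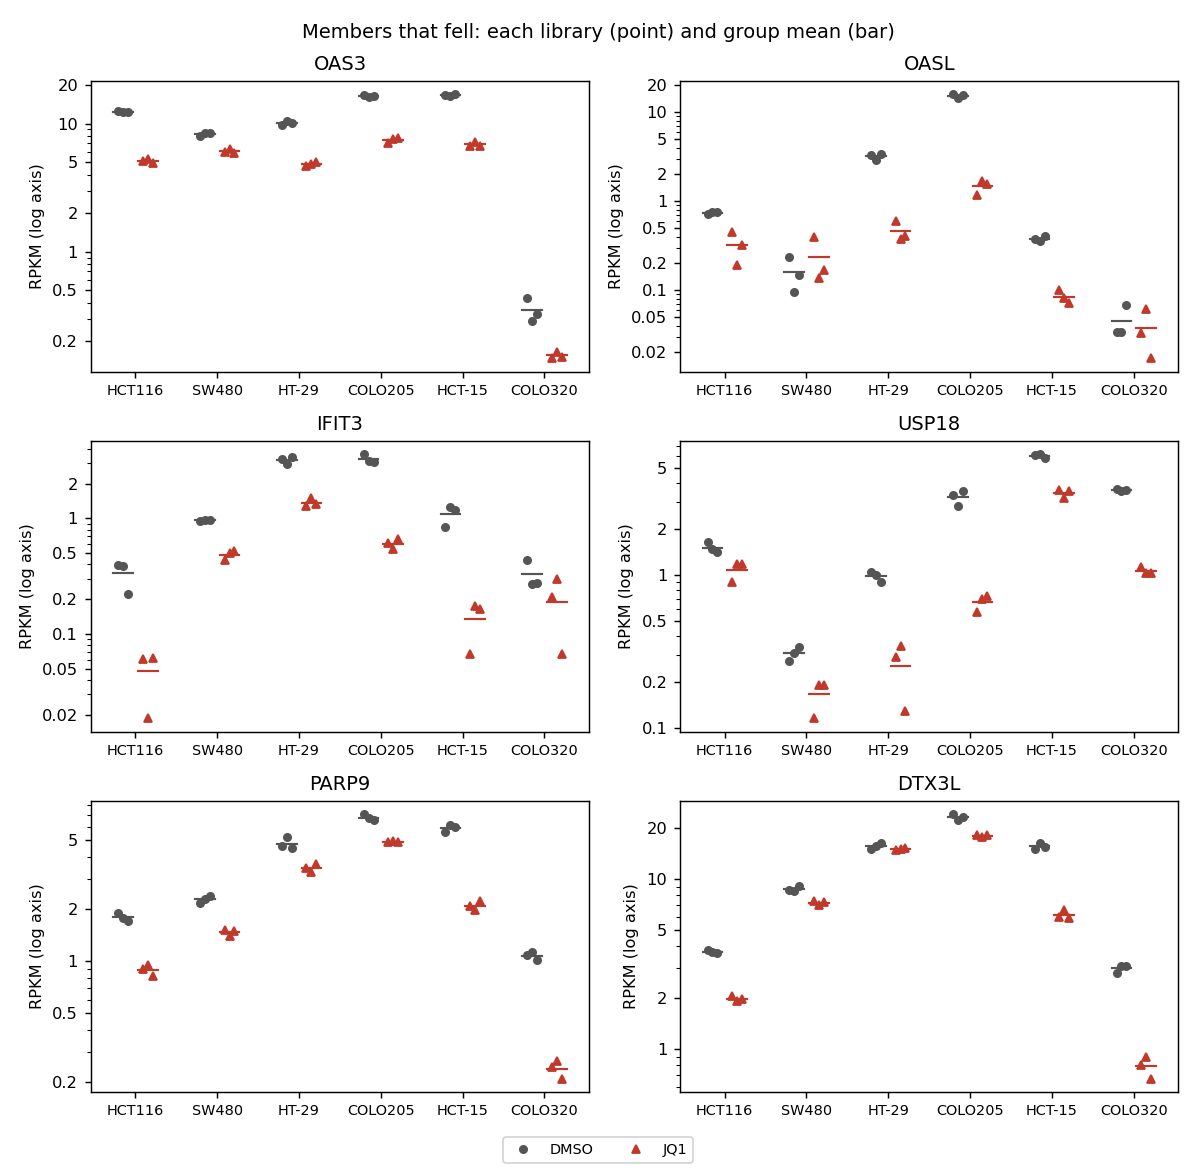
RPKM on a log axis of 6 members that fell on average, in each library (grey circles DMSO, red triangles JQ1; bars are group means of 3 libraries) by cell line. OAS3, IFIT3, USP18 and PARP9 are lower under JQ1 in every line by group mean, and OASL in COLO205 drops from 14.3 to 15.9 RPKM to 1.18 to 1.67.

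Other antiviral effectors fell in 19 of 30 comparisons and rose in 3, against 35.4% to 40.1% and 31% to 36.6% of all genes in a line. MX1, a GTPase that traps viral capsids, was the largest fall of any member in HCT-15. It stood there at 4.26, 4.43 and 4.55 RPKM under DMSO and 1.28, 1.44 and 1.46 under JQ1, a change of -1.38 (SE 0.0741, adjusted p = 6.58e-16), so that all JQ1 libraries lay far below the DMSO libraries. COLO205 followed with a change of -0.82 (SE 0.0741, adjusted p = 6.23e-11), while SW480, with DMSO levels of 4.24 to 4.42 RPKM like those of HCT-15, had -0.11 (SE 0.0741, adjusted p = 0.196) and was not called. Its COLO320 call (-0.18 (SE 0.0741, adjusted p = 0.029)) was lost without DMSO replicate 1 or 3 or JQ1 replicate 1 or 3 (adjusted p up to 0.155), and it turned to 0.02 (adjusted p = 0.814) under quantile scaling. ISG20, an exonuclease that degrades viral RNA, was the largest fall in SW480. It stood there at 2.82, 1.93 and 3.07 RPKM under DMSO and 0.452, 0.779 and 0.934 under JQ1, a change of -1.35 (SE 0.143, adjusted p = 1.57e-09), and no JQ1 library reached the lowest DMSO library.

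BST2, or tetherin, holds budding virus at the cell surface. Its DMSO level was 63.8 ± 1.68 RPKM in COLO205 and 58.6 ± 2.76 in HT-29 and at most 2.997 in the other 4 lines. It fell in COLO205 (-0.53 (SE 0.103, adjusted p = 3.57e-05)) and most in SW480, from 2.997 ± 0.596 to 1.07 ± 0.0149 RPKM (-1.14 (SE 0.103, adjusted p = 6.5e-11)). The small HT-29 change (-0.23 (SE 0.103, adjusted p = 0.0488)) was lost without DMSO replicate 2 or 3 or any JQ1 replicate (adjusted p up to 0.141). SAMD9, a factor that restricts poxviruses, fell in HCT116, SW480, HCT-15 and COLO320, with changes of -0.20 to -0.91, and the SW480 call was lost without DMSO replicate 2 or JQ1 replicate 1 or 2 (adjusted p up to 0.0974). In HT-29 and COLO205, where SAMD9 was highest at 10.1 and 8.24 RPKM, the changes of 0.11 (SE 0.07498, adjusted p = 0.191) and -0.086 (SE 0.07498, adjusted p = 0.319) were not called. TRIM21, a ligase that recognises antibody-coated virus, rose in SW480, HT-29 and HCT-15 by 0.32 to 0.60 and fell in COLO205 (-0.32 (SE 0.0627, adjusted p = 5.01e-05)) and COLO320 (-0.92 (SE 0.0627, adjusted p = 1.64e-13)).

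IFI6 and IFI27 encode related small membrane proteins. IFI6, which protects cells from some viruses and from death, rose in every line, by 1.03 (SE 0.0274, adjusted p = 8.36e-24) on average. SW480 rose from 11.4 ± 0.718 to 31.6 ± 3.29 RPKM (1.43 (SE 0.0671, adjusted p = 2.56e-17)) and COLO205 from 22.6 ± 1.13 to 50.1 ± 2.32 RPKM (1.13 (SE 0.0671, adjusted p = 5.17e-15)). HT-29, the line with the lowest level, went from 2.23 ± 0.2197 to 5.98 ± 0.651 RPKM (1.25 (SE 0.0671, adjusted p = 4.65e-16)), and HCT-15 from 11.5 ± 0.738 to 23.6 ± 0.416 RPKM (1.01 (SE 0.0671, adjusted p = 8.14e-14)). The smallest rise was in COLO320 (0.43 (SE 0.0671, adjusted p = 1.91e-06)). IFI27 did not follow. It fell in SW480 (-0.99 (SE 0.176, adjusted p = 1.11e-05)) and in COLO205 (-0.40 (SE 0.176, adjusted p = 0.0412)) and rose in HCT116 (0.43 (SE 0.176, adjusted p = 0.0328)). The COLO205 call was lost without DMSO replicate 1 or any JQ1 replicate (adjusted p up to 0.247), and the HCT116 call without DMSO replicate 3 or JQ1 replicate 1 or 3 (adjusted p up to 0.192).

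Among the less characterised members, IFI44 was the largest fall of any member in HT-29. IFI44 passed the filter on low values only through the DMSO libraries of HT-29, so a fall there was favoured. It stood there at 2.000, 2.29 and 2.17 RPKM under DMSO and 0.0663, 0.2395 and 0.121 under JQ1, a change of -2.05 (SE 0.0788, adjusted p = 1.75e-19), and the groups were far apart. COLO320 showed a smaller fall, from 0.639 ± 0.141 to 0.229 ± 0.0527 RPKM (-0.64 (SE 0.0788, adjusted p = 3.42e-08)), and the COLO205 call rested on 8 reads under DMSO and 0 under JQ1, a count of 0 that allows up to 3 reads. That call was lost without DMSO replicate 1 or 2 or any JQ1 replicate (adjusted p up to 0.254). IFI44L, its neighbour, stayed under the filter, with a highest value of 0.130 RPKM. EPSTI1 was at 71.99 RPKM in COLO205 and at most 2.54 elsewhere. It fell in COLO205 (-0.80 (SE 0.0785, adjusted p = 3e-10)) and at least 2-fold in COLO320, from 2.54 ± 0.116 to 0.552 ± 0.114 RPKM (-1.53 (SE 0.0785, adjusted p = 2.8e-16)). It also fell in SW480 (-0.53 (SE 0.0785, adjusted p = 6.02e-07)) and HCT116 (-0.18 (SE 0.0785, adjusted p = 0.0446)), the latter lost without DMSO replicate 1 or 2 or JQ1 replicate 2 or 3 (adjusted p up to 0.241). IFI35, which forms a complex with NMI, rose in HT-29 from 6.24 ± 0.414 to 13.9 ± 0.744 RPKM (1.09 (SE 0.0768, adjusted p = 2.2e-13)) and fell in HCT116, SW480, HCT-15 and COLO320, with changes of -0.19 to -0.55. The HCT-15 call was lost without DMSO replicate 2 or 3 or JQ1 replicate 3 (adjusted p up to 0.205).

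The 3 members with the smallest p-values for a difference between lines were XAF1 (adjusted p = 3.41e-29), CXCL11 (2.03e-23) and LGALS3BP (2.33e-19). XAF1 and CXCL11 passed the filter only through the DMSO libraries of 1 line, so a difference between lines was built in for them. A fall under JQ1 in that same line was favoured for the same reason. XAF1, which binds and opposes the death inhibitor XIAP, was expressed in COLO205 and fell there. It stood at 8.91, 9.04 and 8.84 RPKM under DMSO and 0.921, 0.915 and 0.919 under JQ1, a change of -2.73 (SE 0.0277, adjusted p = 1.57e-32). Each of the other 30 libraries held 0 to 0.0775 RPKM, at or near the worth of a few reads, and no change was called there. With other settings XAF1 was called as a fall in SW480 and HT-29 (pseudocount 0.1, and voom on recovered reads). In COLO320 it was called as a rise, at 0.11 (quantile scaling). These calls had adjusted p of 0.00871 to 0.0433. CXCL11, a chemokine that draws T cells through the receptor CXCR3, was expressed in COLO320 and was the largest fall of any member there. It stood at 8.97, 9.82 and 8.09 RPKM under DMSO and 0.325, 0.237 and 0.134 under JQ1, a change of -3.70 (SE 0.06903, adjusted p = 2.64e-26). All other libraries held at most 0.152 RPKM, and the HT-29 fall rested on 12 reads under DMSO and 0 under JQ1. CXCL10, its neighbour and fellow CXCR3 ligand, stayed under the filter at a highest value of 0.168 RPKM, reached in HT-29 under DMSO.

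LGALS3BP, a secreted glycoprotein that binds galectins, was the most abundant member in every line but COLO320. In HCT116, LGALS3BP stood at 127, 128 and 133 RPKM under DMSO and 120.3, 119.5 and 122 under JQ1. In SW480, LGALS3BP stood at 78.8, 78.3 and 81.01 RPKM under DMSO and 89.01, 91.03 and 91.8 under JQ1. The first fell (-0.10 (SE 0.0359, adjusted p = 0.0135)) and the second rose (0.19 (SE 0.0359, adjusted p = 2.68e-05)), and the HCT116 call was lost without DMSO replicate 3 (-0.083, adjusted p = 0.0727). In HT-29, LGALS3BP stood at 322, 319 and 324 RPKM under DMSO and 389, 393 and 393 under JQ1. In COLO205, LGALS3BP stood at 310.1, 316 and 323 RPKM under DMSO and 346, 344 and 347 under JQ1. Both rose, by 0.28 (SE 0.0359, adjusted p = 4.06e-08) and 0.13 (SE 0.0359, adjusted p = 0.00212). In HCT-15, LGALS3BP stood at 199, 198 and 200.1 RPKM under DMSO and 164, 167 and 171 under JQ1. In COLO320, LGALS3BP stood at 2.56, 2.902 and 2.63 RPKM under DMSO and 1.09, 0.973 and 0.854 under JQ1. HCT-15 fell by less (-0.25 (SE 0.0359, adjusted p = 5.35e-07)) than COLO320 (-1.12 (SE 0.0359, adjusted p = 6.67e-21)). The average of -0.14 became 0.05 (adjusted p = 3.5e-06) with COLO320 left out, so the direction of the average rested on that line.

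Untreated levels of the members that rose and of those that fell are given here as a description, with no test. The median over lines of the DMSO mean had a median of 6.17 RPKM for the 6 members that rose on average, with a range of 0.509 to 46.3. For the 24 members that fell it was 1.87, with a range of 0.0183 to 164. The first range lay within the second, and low genes give smaller changes on this scale. With COLO320 left out, an alternative chosen after the data were seen, 8 members rose and 22 fell, TRIM21 (0.22, adjusted p = 1.09e-08) and LGALS3BP joining the rises.

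The wider pathway was read from a list of 74 genes, of which 59 were tested. On average 26 rose and 31 fell, with a median of -0.06. Of all tested genes 40.2% rose and 48.3% fell on average, so these shares are near the background, against which the counts of the smaller groups below are also to be read. Of the ligands, IFNE alone passed the filter, through the 3 JQ1 libraries of HT-29 where it was high, so its rise was built in. The other 7 reached at most 0.176 RPKM in any library. Of 6 receptor subunits 4 rose and 2 fell, and all 3 kinases rose. JAK2 and TYK2 rose by 0.13 each on average, and each fell in 1 line. With the cell line as the unit, JAK1 was the 1 kinase that rose. By that measure 14 of the 59 rose and 16 fell, where 18.6% and 20.3% of all genes did. The counts that follow are again those of the average. Of 7 further transcription factors 3 rose and 2 fell, of 9 nucleic acid sensors and relays 4 rose and 5 fell, and of 6 negative regulators 2 rose and 4 fell. Of 27 other interferon-stimulated genes 9 rose and 18 fell. RTP4, among the falls, passed the filter only through the 3 DMSO libraries of COLO205, so its fall there was favoured.

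Of that list, 5 genes fell and 4 rose at least 2-fold on average, where 1.85% and 1.33% of all genes did. The 4 that rose were SAMHD1, an enzyme that breaks down DNA building blocks, at 1.13 (SE 0.0142, adjusted p = 2.13e-31), SOCS1, an inhibitor of JAK kinases, at 1.12 (SE 0.0519, adjusted p = 5.66e-18), LAMP3 at 1.10 (SE 0.0333, adjusted p = 1.67e-22) and the kinase JAK1 at 1.02 (SE 0.00883, adjusted p = 5.4e-35). Among the 5 that fell, IFITM2, a membrane protein that blocks virus entry, had -1.47 (SE 0.0603, adjusted p = 3.09e-19), with HT-29 going from 29.9 ± 1.305 to 4.22 ± 0.196 RPKM. STING1, the adaptor of cytosolic DNA sensing, had -1.25 (SE 0.0256, adjusted p = 1.6e-26) and fell in all 6 lines, in HCT116 from 4.94 ± 0.177 to 0.874 ± 0.0959 RPKM. TRIM14, an adaptor of RNA sensing at mitochondria, had -1.22 (SE 0.0148, adjusted p = 9.17e-32) and fell in all 6 lines, in HCT-15 from 12.5 ± 0.244 to 2.63 ± 0.152 RPKM. These falls were larger on average than that of any of the 33 tested members. TLR3, the endosomal sensor of double-stranded RNA, had -1.17 (SE 0.0359, adjusted p = 2.64e-22) and fell in 5 lines, with SW480 at -0.068 (SE 0.0879, adjusted p = 0.504). IFITM3, a second entry blocker, had -1.13 (SE 0.0322, adjusted p = 3.82e-23) and fell in all 6 lines, in HCT-15 from 273 ± 4.27 to 123 ± 3.57 RPKM.

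**Figure D5:**
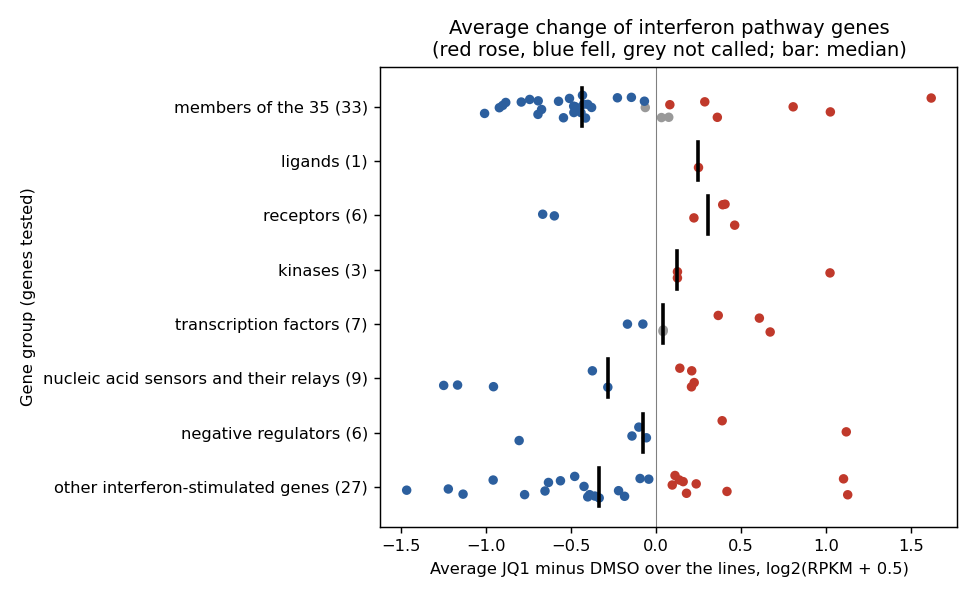
Average JQ1 minus DMSO difference over the 6 lines, on the log2(RPKM + 0.5) scale, of the 33 tested members and of 59 other interferon pathway genes by group (rows, with the number tested); each point is a gene (red rose, blue fell, grey not called) and the black bar is the group's median. The members' median of -0.43 lies left of 0, while receptors and kinases have medians right of it.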

How the data were processed

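RNA sequencing values of 36 libraries were used, 3 per line and treatment, grouped by their labels. The authors deposited RPKM, and per the submitters' processing notes their tools were DESeq, GSNAP and limma. Tool versions were not given in the sources used here, nor was strandedness. The build named there is a mouse assembly, so no coordinates were taken from the files, and symbols and promoters come from RefSeq tables of GRCh38.p14. Whole reads were recovered from the RPKM steps for 23499 genes above 0, which is 100% of them within 0.01 read. Limma 3.58.1 in R 4.3.3 was fitted on log2(RPKM + 0.5) to the 12 groups with a mean-variance trend, for genes of at least 1 RPKM in at least 3 libraries. The fit had 24 residual degrees of freedom. Two-sided p-values were adjusted by Benjamini-Hochberg over all 15542 genes and called at an adjusted p under 0.05. The scripts were tested on simulated data.

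Values in every library were given for the 4 transcription factors, for the largest called rise and fall in each line (in that line) and for the 3 members with the smallest interaction p; other members are given by counts, ranges or, where changed at least 2-fold, group means. Some genes are not reported here. The members and lists were chosen with earlier results of these data known. Same-numbered replicates did not deviate together, so no block was used. Alternatives were other pseudocounts, filters and scalings, voom on recovered reads, each line alone, the line as the unit, a replicate block and leaving out each library. Counting limits, such as the 3 reads that a 0 allows, cover counting error only.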

Additional observations from a re-analysis of the deposited data

Results flagged for a closer look

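The JQ1 change differed between the 6 lines for all 33 tested members by limma's F test of the interaction (Benjamini-Hochberg over all genes), as it did for 93.3% of all tested genes, so a difference between lines is no mark of the members. The transcription factors had adjusted p-values of 8.1e-19 for IRF7, 3.77e-11 for STAT2, 1.06e-09 for IRF1 and 0.000711 for IRF9. The sensors had 1.23e-15 for IFIH1 and 0.00159 for DHX58. The IFIT genes had 4.78e-13 for IFIT5, 5.69e-10 for IFIT1, 2.78e-09 for IFIT3 and 1.43e-06 for IFIT2. The OAS genes had 1.08e-16 for OASL, 7.02e-14 for OAS3, 2.19e-13 for OAS2 and 5.06e-09 for OAS1. The ISG15 system had 4.23e-19 for ISG15, 1.6e-11 for USP18, 1.39e-07 for HERC6 and 1.13e-06 for HERC5. DTX3L had 2.72e-17 and PARP9 2.07e-12. Of the other effectors, TRIM21 had 1.23e-14, MX1 4.46e-12, SAMD9 4.84e-10, BST2 1.44e-07 and ISG20 2.3e-05. IFI6 had 2.6e-09 and IFI27 4.2e-05. IFI44 had 9.51e-16, IFI35 3.15e-13 and EPSTI1 2.19e-12. XAF1 had 3.41e-29, CXCL11 2.03e-23 and LGALS3BP 2.33e-19.

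The members in which lines moved in opposite directions, each past the threshold, included ISG15, which rose in 5 lines and fell in COLO320. IFI35 rose in HT-29 and fell in 4 lines, and IFIT1 rose in SW480, a call lost under quantile scaling (0.19, adjusted p = 0.14), and fell in the other 5.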

How the results depend on the processing

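Of 182 called changes of members (152 in single lines and 30 averages), pseudocounts of 0.1 and 1 ended 9 and 6, no filter on low values 7, total reads as divisor 4, quantile scaling 11, median centring 6, voom on recovered reads 8 and fitting each line alone 11 of 152. A filter at 5 RPKM left 142 of these changes to test and ended 0. With the cell line as the unit, the members that fell on average numbered 11 in place of 24. Under quantile scaling the members that rose in COLO320 numbered 5 in place of 3. Direction turned in 3 cases: MX1 in COLO320 became 0.0219 under quantile scaling, and with COLO320 left out the averages of IFI35 and LGALS3BP became 0.0002 and 0.0507. The causes were not tested. No scaling moved the median of all genes by more than 0.1 on the log2 scale.

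Leaving out 1 library at a time gave 5 to 7 rises and 16 to 18 falls in HCT116, 8 and 16 to 17 in SW480, 9 to 10 and 16 to 17 in HT-29, 7 to 8 and 18 to 21 in COLO205, 5 to 6 and 15 to 18 in HCT-15, 3 to 4 and 18 to 21 in COLO320, and 5 to 6 and 23 to 24 on average. It ended 21 of the 182 calls, and the 19 of them in single lines had changes of at most 0.44. Same-numbered replicates correlated at -0.41 to 0.12, and in 6 of 18 pairs the libraries correlated best with their own number. No pairing by number was seen, but with 3 libraries per group these correlations cannot exclude a weak one. With the replicate block 181 of 182 calls stood and 1 was lost, HERC6 in HCT116 (adjusted p = 0.0587). Depth limits the members under about 0.1 RPKM, where a group holds few reads.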
